A study of Mus musculus with 10 samples.

Results

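The comparison described here sets embryonic stem cells that carry an active Esrrb reporter against cells in which it is off, while the Tbx3 reporter is off in both. Esrrb encodes an orphan nuclear receptor that sustains the naive state of mouse pluripotency together with Nanog, Klf4, Tfcp2l1 and other factors, in a network fed by LIF signalling and weakened by FGF and ERK signalling. Cells that leave this state pass through a formative phase marked by Pou3f1, Otx2 and Fgf5, and cultures of mouse embryonic stem cells hold a mixture of such states. Sorting on a reporter placed in the Esrrb locus is therefore a way to separate cells by their place in this mixture.

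All cells were E14Tg2a.4 mouse embryonic stem cells carrying a double knock-in reporter with a fluorescent protein for each of Esrrb and Tbx3, sorted by flow cytometry. The single-positive fraction was Esrrb-positive and Tbx3-negative, and the double-negative fraction was negative for both reporters. Also used as outside points were the double-positive fraction of the same line and the positive and negative fractions of a second E14Tg2a.4 line, which carries a fragment of the Zscan4c promoter driving a reporter from a piggyBac transposon. Each fraction had 2 libraries from different collection days, so the comparison covers 4 of the 10 libraries, but the deposited table gives 1 merged FPKM value per gene row and fraction. FPKM counts sequenced fragments scaled to transcript length and to the number of mapped fragments. With 1 value per fraction, and no depth, there is no replicate spread, no standard deviation and no test for any difference below. A row was compared where it reached 1 FPKM in either fraction, which held for 13037 of 32361 rows. Higher or lower in single-positive cells means that log2(FPKM + 1) differed by at least 1, which is called 2-fold below. The added 1 shrinks differences between low levels, so a row with a plain FPKM ratio above 2 can fall short of this limit. A lower value in a sorted population can come from fewer expressing cells or from less RNA per cell, which cannot be told apart here.

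The sorted gene followed its label, and the 3 other markers, which the labels do not mention, also differed by 2-fold or more. Esrrb (chromosome 12, 86361117 to 86521628 in mm10) had 177 FPKM in single-positive cells and 43.3 FPKM in double-negative cells, so the reporter-off fraction kept Esrrb RNA. Nanog, a homeobox factor of the naive network, had 278 FPKM in single-positive and 79.8 FPKM in double-negative cells. Klf4, a zinc finger factor downstream of LIF, had 65.5 FPKM in single-positive and 14.5 FPKM in double-negative cells. Pou3f1, a POU factor of the formative phase, ran the other way, with 5.30 FPKM in single-positive and 52.0 FPKM in double-negative cells. Tbx3 itself was low in both, at 1.75 FPKM in single-positive and 0.638 FPKM in double-negative cells, against 12.6 FPKM in double-positive cells.

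Most of the transcriptome differed little. For 93.4% of rows the single-positive value was 0.5 to 2 times the double-negative value, and the median difference over all rows was -0.02 on the log2 scale. Past 2-fold on the higher side were 247 rows, 1.89% of those compared, and on the lower side 195 rows, 1.5%. These shares are the background for the list counts below. The table of gene types put 210 of the higher rows in protein-coding genes outside the shared profile described next, 1.85% of 11369 such rows. Of the lower rows it put 140 in that class, 1.23%, and 22 in protein-coding genes of the profile. Large differences were rarer: a 4-fold distance was reached by 30 of the 210 genes and 13 of the 140, and an 8-fold distance by 1 of the 210 and 2 of the 140. The plot of all rows shows these genes as thin clouds on either side of a narrow diagonal. Next to the 2-fold limit on the higher side, Stmn3 was inside with 15.2 FPKM in single-positive and 7.09 FPKM in double-negative cells, and Glul outside with 178 FPKM in single-positive and 88.9 FPKM in double-negative cells. On the lower side Ripk4 was inside with 1.14 FPKM in single-positive and 3.29 FPKM in double-negative cells, and Ddit4 outside with 59.0 FPKM in single-positive and 119 FPKM in double-negative cells. Next to the minimum of 1 FPKM, AU041133 was kept with 1.00 FPKM in double-negative cells and Cnga3 was left out with 0.999 FPKM.

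**Figure D1:**
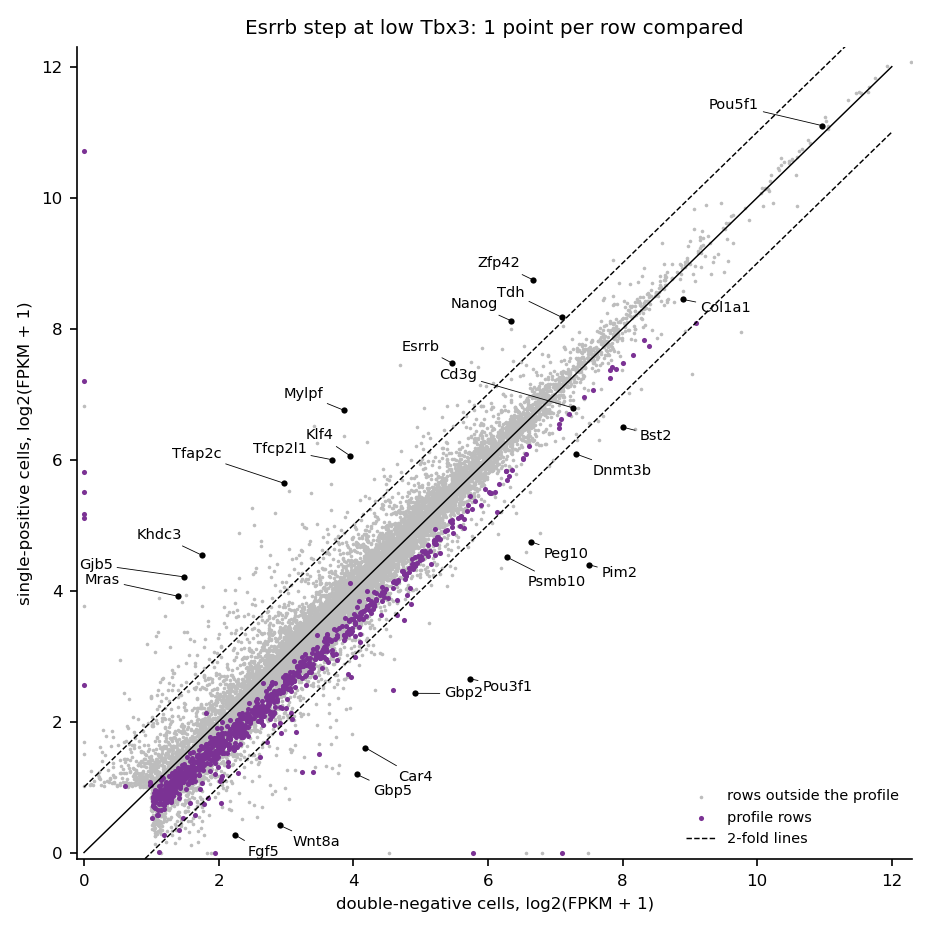
Level of the compared rows in single-positive cells (vertical axis) against double-negative cells (horizontal axis), both as log2(FPKM + 1), with rows of the shared profile in purple, 2-fold limits as dashed lines, selected genes labelled in black and 2 noncoding or unmatched rows beyond the axes. The naive factors Esrrb, Nanog, Klf4 and Zfp42 lie above the upper dashed line, Pou3f1, Pim2 and Gbp5 lie below the lower one, and the purple rows run as a band just below the diagonal.

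A block of transcripts in both fractions is foreign to the other 3. It was flagged where the double-positive, Zscan4-positive and Zscan4-negative levels were all at most 0.25 of the double-negative level, a rule that does not use the single-positive value. The flag took in 869 rows, of which 772 were protein-coding. Just inside it were Il2rb and Mxd4, and just outside Ano10 and Syde1, all with a highest share that rounds to 0.25. Of these, 7 met the rule with 0 in the double-negative and the other 3 fractions. They are 4 microRNAs, a small nucleolar RNA, a long noncoding RNA and an unmatched row, and were the flagged rows at least 2-fold higher. The other 862 rows had in single-positive cells a median of 0.696 of their double-negative level, with quartiles of 0.638 and 0.743. A ratio between 0.6 and 0.8 was found in 73.3% of them and in 12.4% of unflagged rows. Protein-coding profile rows made up 1.33% of all FPKM in single-positive, 1.99% in double-negative and 0.10% in double-positive cells. The rule itself requires a low share in double-positive cells.

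Markers of other cell types belong to this block. Of 16 fibroblast markers compared 14 were flagged, none was at least 2-fold apart, and their summed level was 2124 FPKM in single-positive and 2821 FPKM in double-negative cells, against 377 FPKM in double-positive cells. Of 15 T-lineage markers 11 were flagged, with a sum of 445 FPKM in single-positive and 625 FPKM in double-negative cells, against 40.9 FPKM in double-positive cells. Only Cd27, a costimulatory receptor of lymphocytes, was lower among them. Of 4 myeloid markers 3 were flagged, among them Spi1 with 56.2 FPKM in single-positive and 80.8 FPKM in double-negative cells, while the defining markers Csf1r and Adgre1 were under 1 FPKM in both. None of 6 endothelial or 2 erythroid markers was flagged, and Emcn was listed at 0 in every fraction. The part of these transcripts in each difference below was not tested, and a flagged gene is named as such where it appears.

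The ratios of the 140 lower genes outside the profile, which the 2-fold limit keeps low, ran from 0.0425 to 0.489 with a median of 0.300. Of these genes 93 were under 0.377, the value below which 2.5% of the profile rows fall. The other 47 had ratios that profile rows also reach. Profile rows made up 27 of the 195 lower rows and 869 of the 13037 rows compared. The flag and the lower call both use the double-negative level, so these counts are not independent.

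**Figure D2:**
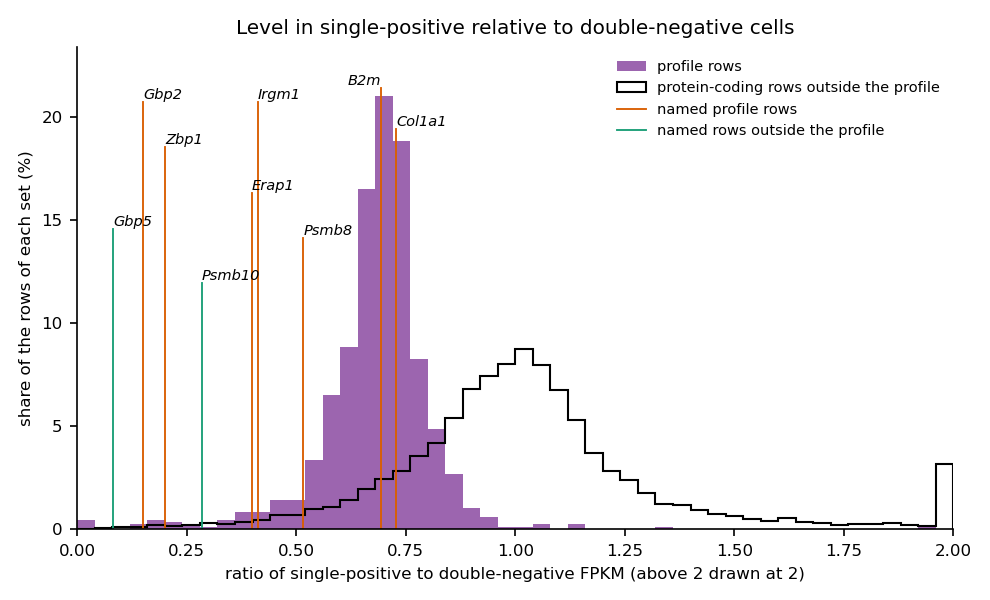
Share of rows by the ratio of single-positive to double-negative FPKM, in bins of the horizontal axis, for profile rows (filled) and protein-coding rows outside the profile (outline), with vertical lines at the ratios of named genes. Profile rows gather around 0.696, where B2m and Col1a1 lie, while Gbp2, Zbp1, Irgm1 and Erap1 are flagged rows to the left of them and Gbp5 and Psmb10 are outside the profile.

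Of 16 naive pluripotency factors, 11, the sorted gene Esrrb included, were higher by 2-fold or more and none lower, with a median difference of 1.78. Tfcp2l1, a CP2-family factor acting downstream of LIF and STAT3, had 63.0 FPKM in single-positive and 11.8 FPKM in double-negative cells. Prdm14, a PR-domain factor that restrains FGF signalling and DNA methylation in these cells, had 12.7 FPKM in single-positive and 2.36 FPKM in double-negative cells. Zfp42, the long-used stem cell marker also called Rex1, had 428 FPKM in single-positive and 101 FPKM in double-negative cells. Tcl1, a coactivator of the kinase AKT, showed the largest difference of the list at 2.49, with 80.8 FPKM in single-positive and 13.6 FPKM in double-negative cells. Fbxo15, an F-box gene, stood at the 2-fold limit, with 139 FPKM in single-positive and 68.8 FPKM in double-negative cells. The members that did not reach 2-fold were Klf2, Klf5 and Mybl2 with differences of 0.92, 0.76 and 0.80, Tbx3 with 0.75, and Gbx2 with -0.78. The plain FPKM ratio of Tbx3, at low levels, was 2.74. All 11 were still higher in double-positive than in single-positive cells. Over all protein-coding rows outside the profile, 45.0% had a double-positive level at or above the single-positive and double-negative levels. Among the 210 higher ones 93.3% did, so this is not a trait of the naive factors alone.

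Esrrb shares its receptor family with 2 of these factors. Nr0b1, the corepressor DAX1, had 109 FPKM in single-positive and 32.0 FPKM in double-negative cells, and Nr5a2, the receptor LRH1, had 22.4 FPKM in single-positive and 5.76 FPKM in double-negative cells. They were the only other members past 2-fold among 24 nuclear receptors and coregulators, whose median difference was 0.01. The related receptor Esrra had 13.4 FPKM in single-positive and 13.2 FPKM in double-negative cells. The coactivator Ncoa3, through which ESRRB acts in these cells, had 37.8 FPKM in single-positive and 28.2 FPKM in double-negative cells.

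Factors used by naive and later pluripotent cells alike did not reach 2-fold. None of 12 did, with a median of 0.15. Sox2 had 347 FPKM in single-positive and 209 FPKM in double-negative cells, and Sall4 had 81.7 FPKM in single-positive and 61.6 FPKM in double-negative cells. Lin28b, an RNA-binding protein gene that blocks maturation of let-7 microRNAs, and Tdgf1, the NODAL coreceptor gene, differed in the other direction by -0.67 and -0.46.

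**Figure D3:**
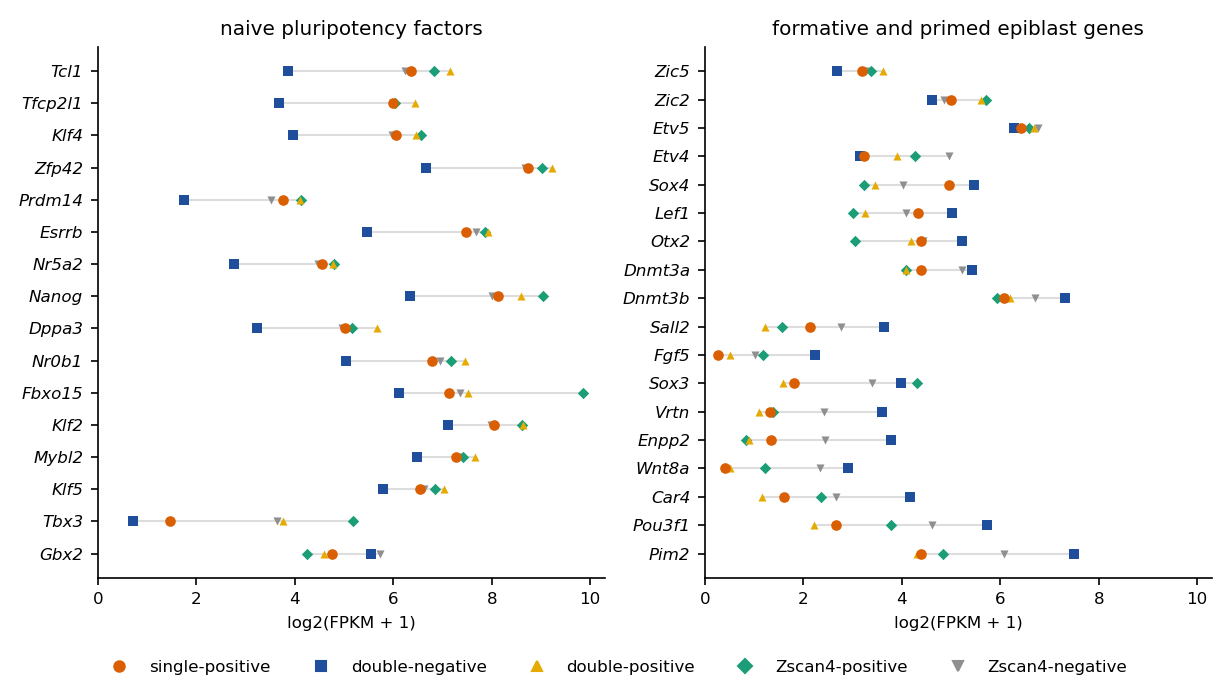
Levels of 16 naive factors (left) and 18 formative and primed genes (right) as log2(FPKM + 1), with 1 symbol per fraction and genes ordered by the difference of single-positive minus double-negative cells. The double-negative square is the lowest point of 15 naive factors, and for the 11 formative genes that were lower the Zscan4-negative triangle lies between the single-positive circle and the double-negative square.

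Of 18 genes of the formative and primed epiblast, 11 were lower by 2-fold or more and none higher, with a median difference of -1.36. Pim2, a serine/threonine kinase gene, had the largest negative difference of all protein-coding rows, with 20.04 FPKM in single-positive and 180 FPKM in double-negative cells. Fgf5, the classic marker of the early postimplantation epiblast, had 0.206 FPKM in single-positive and 3.73 FPKM in double-negative cells. Enpp2, which makes the lipid mediator lysophosphatidic acid, had 1.53 FPKM in single-positive and 12.8 FPKM in double-negative cells. The spalt-type factor Sall2 and the vertnin gene Vrtn, whose product acts in the number of thoracic vertebrae in pigs, had 3.40 and 1.51 FPKM in single-positive cells and 11.4 and 11.1 FPKM in double-negative cells. Otx2, the homeobox factor that directs the formative transition, had 20.1 FPKM in single-positive and 36.3 FPKM in double-negative cells, a difference of -0.82 that stays short of 2-fold. Zic2, Zic5, Etv4 and Etv5 had differences between 0.08 and 0.51. In Zscan4-negative cells, which were not sorted on Esrrb, all 11 lower genes had levels between those of the single-positive and double-negative fractions. Over all protein-coding rows outside the profile, 25.8% did, and of the 140 lower ones 78.6% did. Genes chosen as lower have more room between these levels.

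SOX factors divided by member. In a list of 11 written after values had been seen, Sox15 and Sox21 were higher and Sox3 and Sox11 lower. Sox21, a repressor of the SOXB2 group, had 8.12 FPKM in single-positive and 0.916 FPKM in double-negative cells, and Sox15, which pairs with OCT4 in stem cells, had 17.4 FPKM in single-positive and 5.86 FPKM in double-negative cells. Sox3, a SOXB1 factor of the neural plate, had 2.5 FPKM in single-positive and 14.8 FPKM in double-negative cells, while Sox11, of neural progenitors, had 2.77 FPKM in single-positive and 11.6 FPKM in double-negative cells.

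Some genes of the oocyte, the germline and the trophoblast went with Esrrb. Khdc3, a subunit of the maternal complex under the oocyte membrane, had 22.2 FPKM in single-positive and 2.38 FPKM in double-negative cells. With it Dppa3, which protects methylation in the zygote, and Tcl1 made 3 higher of 9 oocyte and early embryo genes, median 0.73. Tfap2c, an AP-2 factor of trophoblast and germ cells, had 48.8 FPKM in single-positive and 6.84 FPKM in double-negative cells, and Tead4, the trophectoderm partner of YAP, had 5.34 FPKM in single-positive and 1.25 FPKM in double-negative cells. Against these, the keratins Krt18 and Krt8 of simple epithelia were the lower members among 10 trophoblast genes, with 2.16 and 0.887 FPKM in single-positive cells and 10.2 and 2.96 FPKM in double-negative cells.

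Among 21 germline genes, Nanos3, Rhox6 and Rhox9 were higher and Mael lower. Nanos3, an RNA-binding protein gene needed by primordial germ cells, had 7.82 FPKM in single-positive and 1.42 FPKM in double-negative cells. Rhox6 and Rhox9, homeobox genes of an X-linked cluster, had 9.34 and 13.1 FPKM in single-positive cells and 1.15 and 1.75 FPKM in double-negative cells, and Rhox1 of the same cluster had 2.93 FPKM in single-positive and 0.937 FPKM in double-negative cells. Of the 4 Rhox genes compared only Rhox5 was level, with 106 FPKM in single-positive and 112 FPKM in double-negative cells. These genes have near copies, so the division of reads among them is uncertain. Mael, of the piRNA pathway, had 4.69 FPKM in single-positive and 13.4 FPKM in double-negative cells.

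Of 21 genes of FGF signalling and ERK feedback, Fgfr2 was higher and Fgf5, Fgf8 and Fgf15 lower, with a median of -0.20. Fgfr2 had 15.6 FPKM in single-positive and 6.87 FPKM in double-negative cells, and Fgf15 had 5.23 FPKM in single-positive and 12.7 FPKM in double-negative cells. Fgf4, the ligand that drives exit from the naive state, had 62.3 FPKM in single-positive and 33.4 FPKM in double-negative cells, a difference of 0.88. The feedback inhibitors Spry2, Spry4 and Dusp6 differed by -0.07, 0.18 and -0.46.

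Of 23 genes of the RAS family and its regulators 3 were higher and none lower. Adap1, an ARF GTPase-activating protein gene, had 28.3 FPKM in single-positive and 3.92 FPKM in double-negative cells. Mras, a RAS-family GTPase of the SHOC2 complex, had 14.1 FPKM in single-positive and 1.64 FPKM in double-negative cells, and the exchange factor gene Rasgrp2 had 83.5 FPKM in single-positive and 33.4 FPKM in double-negative cells. The list median was -0.04. Eras, the RAS-like gene specific to stem cells, differed by 0.85 without reaching 2-fold. Of 8 Src-family kinases 2 were higher and none lower, with a median of -0.17. Yes1 was a higher member, with 51.1 FPKM in single-positive and 21.7 FPKM in double-negative cells, and Src itself had 13.4 FPKM in single-positive and 16.8 FPKM in double-negative cells. This kinase list, like those for Hedgehog, Eph, semaphorin and carbonic anhydrase genes below, was written after values had been seen.

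Of 18 genes of the LIF and STAT3 pathway 2 were higher and none lower. Lifr had 10.4 FPKM in single-positive and 5.47 FPKM in double-negative cells, and Il6st, the shared coreceptor gp130, had 34.0 FPKM in single-positive and 24.96 FPKM in double-negative cells, both short of 2-fold. Klf4 and Tfcp2l1 were the 2 members past it, the list median was 0.26, and Stat3 and Socs3 differed by 0.10 and 0.21. Cntfr, the ciliary neurotrophic factor receptor that also signals through gp130, was lower, with 2.40 FPKM in single-positive and 12.4 FPKM in double-negative cells.

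WNT genes differed by ligand. Notum, a secreted enzyme that inactivates WNT proteins, had 43.8 FPKM in single-positive and 9.34 FPKM in double-negative cells, and the receptor gene Fzd5 had 26.7 FPKM in single-positive and 12.2 FPKM in double-negative cells. Of the ligands, Wnt7b had 2.45 FPKM in single-positive and 0.252 FPKM in double-negative cells, whereas Wnt8a, expressed at the primitive streak, had 0.336 FPKM in single-positive and 6.49 FPKM in double-negative cells. These were the 4 past 2-fold among 19, with a median of 0.06. Axin2, the common readout of the pathway, had 2.64 FPKM in single-positive and 3.47 FPKM in double-negative cells.

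Members past 2-fold in the NODAL and activin pathway included inhibitors and ligand subunits. Lefty1, a NODAL antagonist, had 129 FPKM in single-positive and 273 FPKM in double-negative cells. Follistatin, from the flagged gene Fst, had 1.75 FPKM in single-positive and 5.15 FPKM in double-negative cells. Inhbb, the beta B subunit of activin and inhibin, had 4.41 FPKM in single-positive and 0.511 FPKM in double-negative cells, and Cfc1, a coreceptor gene related to Tdgf1, had 2.46 FPKM in single-positive and 0.682 FPKM in double-negative cells. Over 18 members 2 were higher and 3 lower, with a median of 0.02, and Nodal itself had 34.8 FPKM in single-positive and 29.9 FPKM in double-negative cells. Of 13 BMP pathway genes Bmp4 was the 1 past 2-fold, with 23.7 FPKM in single-positive and 7.21 FPKM in double-negative cells. The BMP target Id1 leaned the other way, with 31.3 FPKM in single-positive and 55.7 FPKM in double-negative cells.

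Of 12 Hedgehog pathway genes 3 were higher and none lower. Gli1, an activator and target of the pathway, had 36.7 FPKM in single-positive and 11.7 FPKM in double-negative cells. Gli2, a related factor, had 19.5 FPKM in single-positive and 5.75 FPKM in double-negative cells. The target genes Ptch1 and Hhip differed by 0.77 and 0.89, short of 2-fold, though the plain FPKM ratio of Hhip, at low levels, was 2.83. Negative differences were found in 7 members, Gli3 and Sufu among them, down to -0.47, so the list median was -0.29. Among members with at least 5 FPKM in either fraction it was 0.77. Other secreted factors past 2-fold were the growth factor gene Pdgfa, with 31.3 FPKM in single-positive and 10.01 FPKM in double-negative cells, the axon guidance gene Ntn1, with 20.4 FPKM in single-positive and 8.38 FPKM in double-negative cells, and Mdk, the heparin-binding factor midkine, with 134 FPKM in single-positive and 308 FPKM in double-negative cells.

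**Figure D4:**
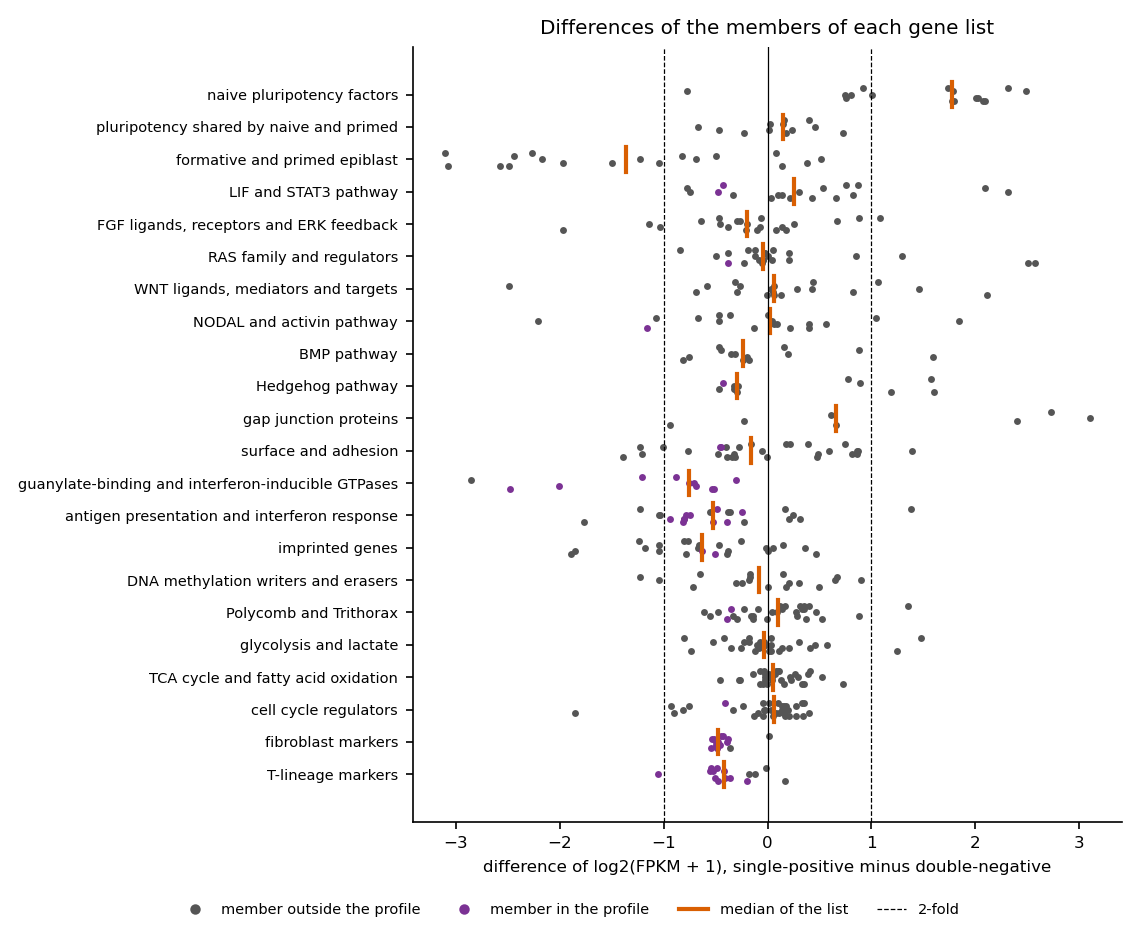
Difference of log2(FPKM + 1), single-positive minus double-negative, for each compared member of 22 gene lists, with profile members in purple, the list median as an orange bar and 2-fold limits as dashed lines. Naive factors centre at 1.78 and formative genes at -1.36, the metabolic and cell cycle lists gather around 0, and fibroblast and T-lineage markers form tight purple groups at -0.47 and -0.42.

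Gap junction proteins form channels between neighbouring cells. Of 7 of their genes, 3 were at least 2-fold higher and none lower, with a median of 0.66. Gjb5, a connexin of the beta group, had 17.5 FPKM in single-positive and 1.79 FPKM in double-negative cells, and Gjb1, another beta connexin, had 11.2 FPKM in single-positive and 1.30 FPKM in double-negative cells. Gja1, an alpha connexin with the highest level of the 7, leaned the other way, with 93.6 FPKM in single-positive and 180 FPKM in double-negative cells. The Gjb1 promoter is shown because it holds the extended ERR site TCAAGGTCA, the sequence ESRRB binds. The motif was searched on both strands in the 300 bases around each start site of the RefSeq promoter table (GRCm38.p6). It was present for 126 of 27025 genes, 0.466%, for 1 of 146 higher protein-coding genes with an entry, which was Gjb1, 0.685%, and for 0 of 94 lower ones. Among all compared protein-coding genes outside the profile with an entry, 29 of 8756 held it, 0.331%. The Gjb1 window follows, with the match, which lies on the opposite strand, in capitals. A match is a description of these letters and not of binding.

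Gjb1 (chrX:101381868-101382167, plus strand): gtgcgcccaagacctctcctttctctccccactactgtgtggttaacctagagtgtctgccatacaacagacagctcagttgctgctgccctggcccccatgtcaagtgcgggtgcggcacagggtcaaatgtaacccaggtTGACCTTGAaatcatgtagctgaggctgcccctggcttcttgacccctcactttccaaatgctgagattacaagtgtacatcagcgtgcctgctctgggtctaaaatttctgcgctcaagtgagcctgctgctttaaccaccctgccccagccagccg

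Surface and guidance genes differed in either direction. Kit, the stem cell factor receptor, had 21.4 FPKM in single-positive and 7.51 FPKM in double-negative cells and was the 1 higher member among 29 surface and adhesion genes. The lower members were Podxl, a sialomucin, with 7.13 FPKM in single-positive and 20.4 FPKM in double-negative cells, and Prom1, Itga3 and Cldn7, with differences of -1.21, -1.23 and -1.01. Nrp2, a semaphorin coreceptor, had 15.1 FPKM in single-positive and 3.26 FPKM in double-negative cells, whereas Sema6a had 0.591 FPKM in single-positive and 3.46 FPKM in double-negative cells. In the Eph family, Epha4 had 12.1 FPKM in single-positive and 3.81 FPKM in double-negative cells, while Epha2, a receptor of the early epiblast, had 44.5 FPKM in single-positive and 98.0 FPKM in double-negative cells, and Epha1 and Efnb2 were lower by -1.53 and -1.17. All 3 lower members of the 4 DCC and neogenin related receptors belong to the immunoglobulin superfamily, and Prtg, Igdcc4 and Igdcc3 differed by -1.70, -1.72 and -1.11, and Neo1 by 0.12.

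Carbonic anhydrases, which interconvert carbon dioxide and bicarbonate, were lower in 4 of 7 members, beside 1.5% of all rows compared. Car4, the membrane-anchored form, had 2.04 FPKM in single-positive and 17.1 FPKM in double-negative cells. The cytosolic form Car2 had 28.5 FPKM in single-positive and 108 FPKM in double-negative cells. Car3 had 0.924 FPKM in single-positive and 6.18 FPKM in double-negative cells, and Car14 had 3.81 FPKM in single-positive and 11.5 FPKM in double-negative cells. Car11, Car12 and Car13 differed by 0.02 to 0.36, and the list median was -1.38.

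The cytoskeletal list held differences of either sign. Mylpf, a regulatory light chain of fast skeletal muscle myosin, differed by 2.89, with 107 FPKM in single-positive and 13.5 FPKM in double-negative cells. Krt42, a type I keratin, had 35.2 FPKM in single-positive and 6.16 FPKM in double-negative cells, and the tubulins Tubb2b and Tubb3 had differences of 1.16 and 1.10. Lower were the actin-binding genes Tagln and Cnn1, the keratins already given and the intermediate filament gene Nes, with differences from -1.07 to -1.82. The median of 29 members was -0.28. Parvb, an adaptor at integrin adhesions, had 48.6 FPKM in single-positive and 11.7 FPKM in double-negative cells.

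Many interferon-inducible and antigen presentation genes were lower, and a large share of them are profile rows. Interferons switch these genes on through transcription factors that include the interferon regulatory factors. Guanylate-binding proteins and immunity-related GTPases attack the vacuoles of intracellular pathogens, and the immunoproteasome cuts peptides for loading on MHC class I. Over 4 lists with 43 different genes, 11 were lower, 1 was higher and 36 had a lower level in single-positive cells, and 19 were flagged. Over all rows compared, 1.5% were lower and 1.89% higher, and unflagged rows had a median ratio of 1.00. Profile rows had a median ratio of 0.696 and an upper quartile of 0.743, so the flagged members weigh on the count of 36. Of 11 guanylate-binding and immunity-related GTPases, 4 were lower with a median of -0.76, and 10 were flagged. Gbp5 was the unflagged member, with 1.29 FPKM in single-positive and 15.6 FPKM in double-negative cells and 4.44 FPKM in Zscan4-negative cells. The flagged Gbp2 had 4.39 FPKM in single-positive and 29.1 FPKM in double-negative cells, and the flagged Gbp3 had 1.36 FPKM in single-positive and 8.46 FPKM in double-negative cells. Irgm1, also flagged, had 10.7 FPKM in single-positive and 25.9 FPKM in double-negative cells.

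Among the flagged rows with the lowest ratios of single-positive to double-negative FPKM, 5 interferon-inducible genes were picked for those ratios. Gbp2 and Gbp3, of the lists above, had 0.151 and 0.160, and Oasl2, Zbp1 and Ddx60, of none of the lists, had 0.141, 0.201 and 0.224, beside a profile median of 0.696. The 9 flagged members of the antigen presentation list did not reach 2-fold. Oasl2 is a relative of the antiviral oligoadenylate synthetases, Zbp1 senses Z-form nucleic acid, and Ddx60 is an antiviral helicase. B2m, the MHC class I light chain, had 166 FPKM in single-positive and 240 FPKM in double-negative cells, a ratio of 0.693 that matches the profile. Of the 43 genes, flagged and unflagged together, 31 had a ratio below the profile median. The share of all rows below it was not computed. Of the 43, 19 are profile rows, which that median splits evenly by definition. The count of 31 is therefore not read as a result.

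The same direction was found in genes of peptide supply that the flag did not take in. Psmb10, a catalytic subunit of the immunoproteasome, had 21.8 FPKM in single-positive and 76.7 FPKM in double-negative cells. Psme2, of the proteasome activator, had 7.33 FPKM in single-positive and 18.3 FPKM in double-negative cells, and Tapbp, the peptide-loading factor tapasin, had 24.3 FPKM in single-positive and 51.0 FPKM in double-negative cells. H2-K1, an MHC class I heavy chain, had 18.0 FPKM in single-positive and 38.1 FPKM in double-negative cells, with the reservation that MHC genes share reads. The transcription factor gene Irf1 had 35.4 FPKM in single-positive and 84.2 FPKM in double-negative cells. None of 7 constitutive proteasome beta subunits reached 2-fold, median 0.05. Parp12 and Parp9, ADP-ribosyltransferase genes induced by interferon, differed by -1.63 and -1.07. Bst2, the tetherin gene that holds enveloped viruses at the membrane, had 89.3 FPKM in single-positive and 255 FPKM in double-negative cells. Psmb10, Psme2, Parp12, Parp9 and Bst2 were also below their double-negative level in double-positive, Zscan4-positive and Zscan4-negative cells. In these fractions, in that order, Psmb10 had 10.9, 9.90 and 25.4 FPKM and Bst2 had 72.1, 69.8 and 114 FPKM. The looser flag share tried below would take these genes in. The part of the profile in their differences was not tested. The 1 higher gene was Oas1a, an oligoadenylate synthetase, with 4.57 FPKM in single-positive and 1.14 FPKM in double-negative cells, and Ifitm1 and Ifitm2 differed by 0.31 and 0.24.

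The promoters of 5 of these lower genes are shown, picked because each holds the same written element. GAAA, any 2 bases and GAAA again, the repeat bound by interferon regulatory factors, was chosen as a motif after the values were seen and searched on both strands. It was found in 1079 of 27025 genes of the RefSeq table, 3.99%, and in 16 of 34 interferon and antigen presentation genes with an entry, 47.1%. These include the higher gene Oas1a, with 2 matches, and genes that did not reach 2-fold, such as Ifitm2. No match was listed for the lower genes Psmb10, Psme2, Tapbp, H2-K1, Irf1, Parp12 and Parp9, some of which may lack an entry. It was found in 8 of 146 higher genes, 5.48%, and in 6 of 94 lower genes outside the profile, 6.38%. Among all compared protein-coding genes outside the profile with an entry, 281 of 8756 held it, 3.21%. Capitals mark each match on either strand, and overlapping matches run together. Positions are those of GRCm38.p6, and each window holds 300 bases, most of them before the transcript start.

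Gbp2 (chr3:142620413-142620712, plus strand): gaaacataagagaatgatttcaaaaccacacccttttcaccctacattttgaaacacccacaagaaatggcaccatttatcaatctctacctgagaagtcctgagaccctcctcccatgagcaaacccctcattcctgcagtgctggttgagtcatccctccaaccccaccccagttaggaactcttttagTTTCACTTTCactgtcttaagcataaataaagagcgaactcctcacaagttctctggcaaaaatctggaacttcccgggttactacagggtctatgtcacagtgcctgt
Gbp3 (chr3:142559794-142560093, plus strand): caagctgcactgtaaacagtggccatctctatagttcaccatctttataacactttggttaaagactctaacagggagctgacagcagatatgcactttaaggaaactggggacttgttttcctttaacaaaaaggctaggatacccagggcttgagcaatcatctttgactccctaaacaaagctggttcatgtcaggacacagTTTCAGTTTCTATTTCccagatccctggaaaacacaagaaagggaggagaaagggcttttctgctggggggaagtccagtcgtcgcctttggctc
Gbp5 (chr3:142496684-142496983, plus strand): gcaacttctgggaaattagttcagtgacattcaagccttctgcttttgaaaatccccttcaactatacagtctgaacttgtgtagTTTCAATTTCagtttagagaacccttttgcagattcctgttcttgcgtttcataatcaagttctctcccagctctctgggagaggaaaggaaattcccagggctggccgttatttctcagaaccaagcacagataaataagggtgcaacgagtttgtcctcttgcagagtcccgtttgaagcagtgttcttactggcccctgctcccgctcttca
Irgm1 (chr11:48871371-48871670, minus strand): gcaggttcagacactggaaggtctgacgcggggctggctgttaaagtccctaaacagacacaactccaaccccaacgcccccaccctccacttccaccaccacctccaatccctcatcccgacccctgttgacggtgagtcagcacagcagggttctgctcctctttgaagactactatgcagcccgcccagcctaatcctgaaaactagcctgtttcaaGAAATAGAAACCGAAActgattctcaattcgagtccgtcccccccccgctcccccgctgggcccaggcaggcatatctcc
Bst2 (chr8:71537423-71537722, minus strand): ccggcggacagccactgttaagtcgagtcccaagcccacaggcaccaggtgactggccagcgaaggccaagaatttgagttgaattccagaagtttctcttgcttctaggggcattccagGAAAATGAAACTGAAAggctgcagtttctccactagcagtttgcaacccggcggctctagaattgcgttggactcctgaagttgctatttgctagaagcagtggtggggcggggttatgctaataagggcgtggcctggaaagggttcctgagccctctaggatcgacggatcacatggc

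Gbp2, Gbp3 and Gbp5 are neighbours on chromosome 3 with matches on the opposite strand of each window, while those of Irgm1 on chromosome 11 and Bst2 on chromosome 8 lie on the strand shown. Gbp3, Irgm1 and Bst2 each hold 2 overlapping matches. In Gbp2, Gbp3, Irgm1 and Bst2 the first match begins 59, 45, 30 and 130 bases before the start site, and in Gbp5 it begins 165 bases before it.

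Imprinted genes, which are expressed from the allele of one parent, were lower in 6 of 23 members and higher in none, with a median of -0.63. Over all rows compared, 1.5% were lower and 1.89% higher. Peg10, a retrotransposon-derived placental gene, and Cdkn1c, a cyclin-dependent kinase inhibitor, had 25.8 and 19.3 FPKM in single-positive cells and 98.5 and 72.5 FPKM in double-negative cells. Rian, a noncoding RNA of the Dlk1 domain, had 100 FPKM in single-positive and 208 FPKM in double-negative cells, and Meg3 of the same domain differed by -0.79. In Zscan4-negative cells Rian was at 196 FPKM and Peg10 at 73.1 FPKM. Grb10, Dlk1 and Zdbf2 differed by -1.23, -1.18 and -1.04. H19 and Igf2 were flagged, with ratios inside the profile, and Peg3 had 17.2 FPKM in both fractions.

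Chromatin genes were mostly level. Among 18 genes of DNA methylation the 2 lower members were Dnmt3a and Dnmt3b, which place new methylation, with differences of -1.05 and -1.23. Their inactive partner Dnmt3l had 323 FPKM in single-positive and 291 FPKM in double-negative cells, the maintenance enzyme gene Dnmt1 had 92.9 FPKM in single-positive and 75.2 FPKM in double-negative cells, and the demethylation genes Tet1 and Tet2 differed by 0.65 and 0.67. Among 30 Polycomb and Trithorax genes, Phf19, an accessory factor of PRC2, was the 1 past 2-fold, with 7.76 FPKM in single-positive and 2.44 FPKM in double-negative cells, and the list median was 0.10.

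Few metabolic genes reached 2-fold. Of 29 glycolytic genes 2 were higher and none lower. Ldhb, the heart-type lactate dehydrogenase subunit, had 206 FPKM in single-positive and 73.2 FPKM in double-negative cells, and Pfkp, the platelet-type phosphofructokinase, had 139 FPKM in single-positive and 58.3 FPKM in double-negative cells. Ldha and Pfkm, which encode other isoforms, differed by -0.53 and -0.42, and the list median was -0.03. Tdh, the threonine dehydrogenase on which mouse stem cells depend for one-carbon units, had 287 FPKM in single-positive and 137 FPKM in double-negative cells and was the 1 past 2-fold among 22 one-carbon genes. None of 32 genes of the TCA cycle and fatty acid oxidation reached 2-fold, median 0.06, nor did any of 45 complex I subunits, median 0.03. Ckb, the brain creatine kinase, had 178 FPKM in single-positive and 52.6 FPKM in double-negative cells, Fabp3, a fatty acid carrier, had 24.8 FPKM in single-positive and 5.20 FPKM in double-negative cells, and Sod2, the mitochondrial superoxide dismutase, had 89.6 FPKM in single-positive and 30.0 FPKM in double-negative cells.

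Genes of lysosomal and autophagic control were higher in a few members. In a list of 22 written after values had been seen, Tfeb and Mitf, related factors that drive lysosomal genes, had 25.1 and 5.31 FPKM in single-positive cells and 9.14 and 1.24 FPKM in double-negative cells. Ulk1, the kinase that starts autophagy, had 68.8 FPKM in single-positive and 25.2 FPKM in double-negative cells, and the receptor gene Calcoco2 had 4.10 FPKM in single-positive and 0.587 FPKM in double-negative cells. Tfe3, a relative of Tfeb, had 47.6 FPKM in single-positive and 50.9 FPKM in double-negative cells. The list median was 0.07.

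Growth and division genes were close between the fractions. Of 34 cell cycle regulators only Cdkn1c passed 2-fold, with a list median of 0.06, and Mki67 had 33.6 FPKM in single-positive and 34.8 FPKM in double-negative cells. None of 77 cytosolic ribosomal protein genes passed it, median 0.07. Among 24 genes of the p53 response only Pmaip1, a BH3-only apoptosis gene, was past 2-fold, with 4.33 FPKM in single-positive and 10.8 FPKM in double-negative cells. Atf3 was the 1 lower of 21 stress and immediate early genes, and 3 of these, among them Fos, were flagged.

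Further genes with large differences belong to none of the lists above or only to large families. Higher were Lrrc34, a leucine-rich repeat gene of pluripotent cells, with 37.1 FPKM in single-positive and 4.64 FPKM in double-negative cells, and Hmces, which shields abasic DNA sites and was abundant, with 207 FPKM in single-positive and 59.1 FPKM in double-negative cells. Serpinb6c, a serine protease inhibitor gene with near copies, had 13.8 FPKM in single-positive and 1.16 FPKM in double-negative cells. Lower were Wt1, the Wilms tumour zinc finger factor, with 1.45 FPKM in single-positive and 11.8 FPKM in double-negative cells, and Foxi3, a forkhead factor, with 2.16 FPKM in single-positive and 11.7 FPKM in double-negative cells. Tcf15, a bHLH factor of cells primed to leave the naive state, had 38.0 FPKM in single-positive and 82.0 FPKM in double-negative cells. Of 213 solute carrier genes 3 were higher and 2 lower, and of 298 zinc finger genes of the Zfp series 3 were higher and 1 lower.

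Both gene sets were chosen on their single-positive and double-negative values, and their levels elsewhere are given as a description. Of the 210 higher genes 196, or 93.3%, had a double-positive level at or above the single-positive level. Over all protein-coding rows outside the profile, the double-positive level was at or above both the single-positive and double-negative levels in 45.0%. It was at or below both in 39.4%. The median level of the 210 higher genes was 16.9 FPKM in single-positive, 4.82 FPKM in double-negative and 23.2 FPKM in double-positive cells. Of the 140 lower genes 90, or 64.3%, had a double-positive level at or below the single-positive level, and their medians were 2.16 FPKM in single-positive, 8.80 FPKM in double-negative and 1.87 FPKM in double-positive cells. The flag removes genes with very low double-positive levels, so it can only reduce this last count. Fgfr2 was among the other higher genes, with 15.6 FPKM in single-positive, 6.87 FPKM in double-negative and 10.98 FPKM in double-positive cells. Ctdsp2, a phosphatase gene, was another, with 530 FPKM in single-positive, 231 FPKM in double-negative, 157 FPKM in double-positive and 69.8 FPKM in Zscan4-positive cells. Both were singled out after their values were seen.

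The negative fraction of the Zscan4 line gave a view from cells unsorted for Esrrb. Esrrb was at 203 FPKM there, above the 177 FPKM of single-positive cells. Tbx3 was at 11.4 FPKM, against 1.75 FPKM in single-positive cells, so neither reporter gene lay between the single-positive and double-negative levels. The median level of the 140 lower genes was 4.36 FPKM in Zscan4-negative cells, and 110 of them, or 78.6%, lay between the single-positive and double-negative levels. Of the 210 higher genes 134 lay between, 73 at or above both and 3 at or below both, with a median of 14.8 FPKM. Over all protein-coding rows outside the profile, 25.8% lay between, 37.7% at or above both and 36.6% at or below both. Genes chosen for distant single-positive and double-negative levels leave more room between them.

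**Figure D5:**
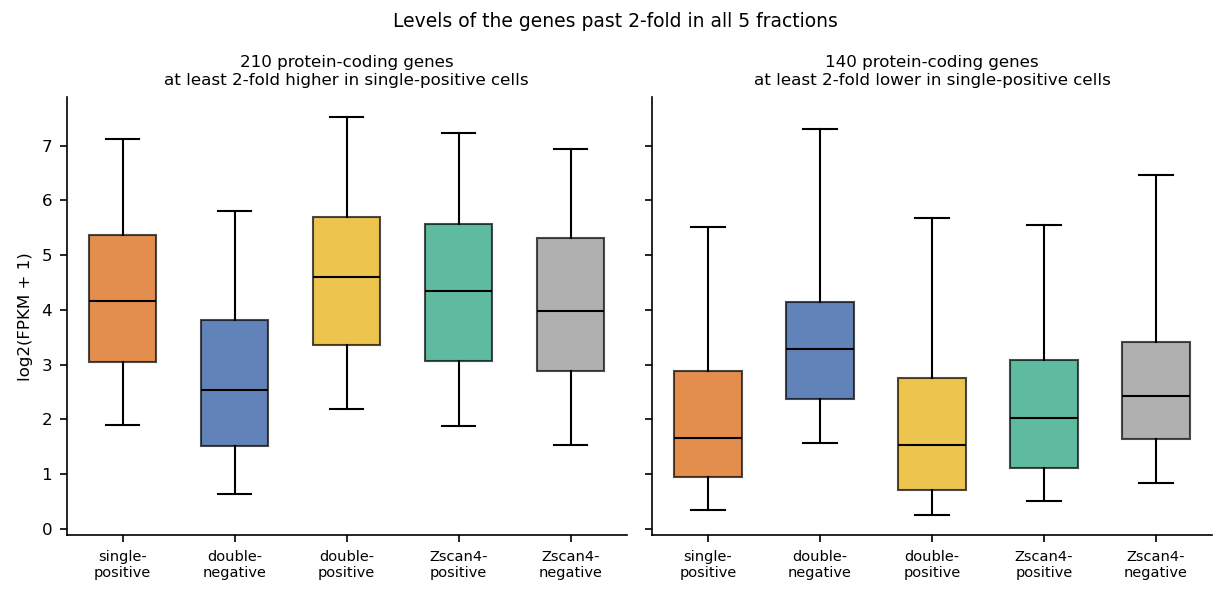
Levels in 5 fractions of the 210 genes higher (left) and the 140 genes lower (right) in single-positive cells as log2(FPKM + 1), with boxes for quartiles, lines for medians and whiskers from the 5th to the 95th percentile over genes. The genes were chosen on the first 2 fractions of each panel. The double-positive median is 23.2 FPKM for the higher genes and 1.87 FPKM for the lower genes, and the Zscan4-negative median of the lower genes lies between the single-positive and double-negative medians.

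Rows that are not protein-coding or have no match in the gene table made up 37 of the 247 higher and 33 of the 195 lower rows. Many are short: 9 microRNA and 4 small nucleolar RNA rows were higher, and 6 microRNA and 4 small nucleolar RNA rows were lower, often with 0 on the other side, and such values were not read as levels. Among long noncoding RNAs, Dancr, the host of a small nucleolar RNA, had 23.1 FPKM in single-positive and 93.5 FPKM in double-negative cells. Peril, a noncoding RNA gene near Sox2, had 1.35 FPKM in single-positive and 0.170 FPKM in double-negative cells.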

How the data were processed

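RNA was extracted from sorted cells with the Qiagen RNeasy kit, made into NEBNext Ultra libraries and sequenced on a HiSeq2500, per the labels' protocols. The submitters' processing notes name bcl2fastq 1.8.4, TopHat2 2.0.14, Cufflinks, Cuffdiff 2.2.1 and mm10. The authors deposited 1 FPKM value per row and fraction. How libraries were merged and normalized, and which annotation was used, is not given in the sources used here, and the depth is unknown, so no counting interval can be given. The strand setting of the counting is also not given, so reads of overlapping genes may be shared.

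From these values, differences of log2(FPKM + 1) were computed for rows of at least 1 FPKM in either fraction, with a 2-fold limit and a profile flag at 0.25. Count models and tests over libraries were not run because each fraction has 1 merged value. Symbols were matched to a RefSeq table of GRCm38.p6, which gave 12141 protein-coding, 275 long noncoding and 501 unmatched rows among those compared. Genes named are list members, with emphasis on those past 2-fold, and other protein-coding genes outside the profile from the 40 largest differences in each direction whose higher value reached 5 FPKM. The members and lists were chosen with earlier results of these data known, and 11 lists were added after the values had been seen. Outside this rule, Ctdsp2, Mdk, Tcf15, Ntn1, Pdgfa, Ckb, Sod2, Oasl2, Zbp1, Ddx60, Dancr, Peril and list members short of 2-fold were chosen after their values were seen. Some genes are not reported here. The calculation was tested on simulated data. Python 3.11.15, pandas 2.3.3, numpy 2.4.6 and matplotlib 3.10.9 were used.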

Additional observations from a re-analysis of the deposited data

How the results depend on the processing

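No paired analysis was possible because each fraction has 1 merged value, and for the same reason leaving out each replicate in turn was not run. The counts moved most with the pseudocount. With a pseudocount of 0.1 in place of 1, 378 rows were higher and 418 lower, of which 324 and 322 were protein-coding rows outside the profile. With a pseudocount of 5, 119 rows were higher and 58 lower, of which 99 and 39 were in that class. A flag at 0.1 or 0.5 took in 509 or 1583 rows in place of 869, and at 0.5 the lower protein-coding rows outside the profile were 85 in place of 140. The counts of higher and lower rows under the other scalings and filters stayed within 1.5 times. Of 157 named genes, 157 stayed past 2-fold in the same direction with a pseudocount of 0.1 and 90 with a pseudocount of 5, and 0 turned round. Medians of 47 gene lists moved by 0.2 or more for 4 lists with a pseudocount of 0.1, 10 with a pseudocount of 5, 11 when a row had to reach 5 FPKM and 3 when profile members were left out. With a pseudocount of 5 the median of the naive factors was 1.39 and that of the formative genes -0.95. With the minimum of 5 FPKM the gap junction median was 1.53, the Hedgehog median was 0.77 in place of -0.29, the trophoblast median 0.14 in place of -0.36 and the Eph and ephrin median 0.28 in place of -0.04. Scaling moved the log2 difference of all genes by -0.05 to 0.02. With 1 value per fraction and no depth, no difference here has a replicate check.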
